A study of Mus musculus with 9 samples.

Results

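The genes described here encode the aminoacyl-tRNA synthetases of mouse liver, the enzymes that load each transfer RNA with its amino acid. They were chosen by gene symbol: 20 symbols form the cytosolic class and 16, all ending in 2, form the mitochondrial class. All 36 were found among the 54393 genes of the deposited count table, and all 36 were among the 14873 genes with enough reads to be tested. The family and its 2 classes were chosen with the values of this comparison known, so the values of the members are given as a description and no test of a class is made.

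Liver RNA was sequenced from C56Bl/6j mice (the strain as labelled), all fed the purified diet AIN-76a. The 5 control libraries came from mice without antibiotics, and the 4 antibiotics libraries, labelled 1, 2, 3 and 5, from mice given antibiotics that stay in the gut and deplete its bacteria. The names and doses of the antibiotics, the length of treatment, and the age and sex of the mice, are not given in the sources used. The comparison asks how liver transcripts differ when the gut microbiota is depleted.

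Protein synthesis runs in 2 compartments of a liver cell, and each has its own set of loaded transfer RNAs. The cytosolic synthetases serve the translation of nuclear messages, and several of them sit together in a multi-synthetase complex held by scaffold proteins. The mitochondrial synthetases are made from separate nuclear genes, are imported, and serve only the few proteins that the mitochondrial genome encodes, although Gars and Kars are known to encode both forms from a single gene. When amino acids run short, uncharged transfer RNA activates the kinase GCN2 (Eif2ak4), eIF2 is phosphorylated, and the transcription factor ATF4 is made. ATF4 is known to act on many cytosolic synthetase genes, on amino acid transporters and on enzymes of amino acid synthesis.

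ATF4 binds composite elements with the core letters TGATGNAA. These letters, and the stricter TGATGCAA that they include, were searched on both strands in promoter windows of 300 bases, 250 before and 50 after the RefSeq gene start (GRCm38.p6). A window was on hand for 26 of the 36 genes, 12 cytosolic and 14 mitochondrial. The strict letters were found in 4 of 12 cytosolic windows (Aars, Iars, Tars, Yars), in 0 of 14 mitochondrial windows and in 1.03% of the windows of 27025 genes. The loose letters were found in 5 of 12, with Gars added, in 0 of 14 and in 4.51% of all. The strict matches of Tars, Yars and Iars are shown because these genes include 2 of the 5 called members, Iars and Yars. Capitals mark the match, on the strand of the gene, and the match reads in reverse complement in Iars and Tars. The Tars match starts 15 bases before the gene start (chr15:11399655-11399684, minus strand), the Yars match 3 bases after it (chr4:129189895-129189924, plus strand) and the Iars match 7 bases after it (chr13:49682126-49682155, plus strand).
Tars: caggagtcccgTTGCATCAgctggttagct
Yars: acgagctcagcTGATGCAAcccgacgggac
Iars: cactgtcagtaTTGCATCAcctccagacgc

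The letters GCATGCGC of NRF1, a factor known for nuclear genes of mitochondrial function, were found in 0 of 12 cytosolic and 3 of 14 mitochondrial windows, against 3.05% of all windows. The 3 genes were Rars2 (chr4:34614895-34614924, plus strand, 51 bases before the start), Vars2 (2 matches, the farther one 46 bases before the start at chr17:35667620-35667649, minus strand) and Wars2 (chr3:99141015-99141044, plus strand, 64 bases before the start). They are shown because the letters of the cytosolic set are absent from these windows. Capitals again mark the match.
Rars2: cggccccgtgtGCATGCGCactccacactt
Vars2: gagtcttttacGCATGCGCctgcgtgtccc
Wars2: ccagaggacagGCGCATGCgtagtaagcac

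The E-box CACGTG, a palindrome, was found in 4 of 12 cytosolic windows (Aars, Farsb, Iars, Tars) and 1 of 14 mitochondrial ones (Ears2), against 8.09% of all. The GABPA letters CCGGAAGT were found once in each class, in Farsa and Rars2, against 4.31% of all. Such matches describe letters in a window and do not show that a factor binds there.

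Several cytosolic synthetase transcripts fell in the antibiotics livers. No mitochondrial one of 16 passed the test, which is near the share called over all tested genes (2.68%). Of the 20 cytosolic genes, 5 fell (Cars, Yars, Mars, Nars and Iars) and 0 rose by edgeR's quasi-likelihood test at an adjusted p under 0.05. Without antibiotics library 1, 3 or 5 there were 0 calls in the class, although 19 of 20 genes were still below 0 and the class median was -0.25, -0.21 and -0.25. Without antibiotics 2 there were 3, and without control 1, 2 or 4 there were 2, 1 and 1. The fits without control 3 or control 5 each gave more calls in the class than any of these. Of the 9 fits that left out a library, Cars passed in 6, Yars in 4, Mars and Iars in 2 each and Nars in 1. Over all tested genes 398 were called, 2.68% of 14873, with 242 (1.63%) higher and 156 (1.05%) lower, or 237 and 86 when mitochondrially encoded genes were left out of the library sizes. The log2 fold change, antibiotics over control, was below 0 for 19 of 20 cytosolic genes, with a median of -0.24, and for 8 of 16 mitochondrial genes, with a median of 0.02. The median over all tested genes was -0.01, and 51.4% of them were below 0. The classes thus differed in median by -0.26, and that value lay between -0.30 and -0.23 under every alternative run. In whole liver, fewer cells of a type and less RNA per cell cannot be told apart.

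**Figure D1:**
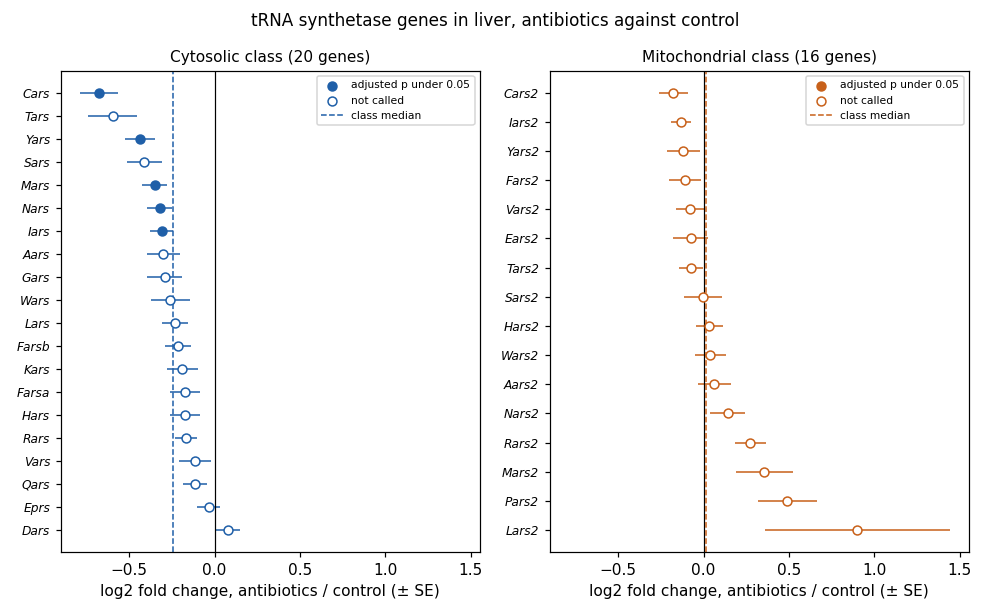
The log2 fold change (antibiotics over control, x axis) of each cytosolic gene on the left and each mitochondrial gene on the right, with bars for the SE and filled points for an adjusted p under 0.05. The cytosolic points lie left of 0 except Dars, with filled points for Cars, Yars, Mars, Nars and Iars, and the mitochondrial points lie on both sides with a wide bar for Lars2.

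Cars loads cysteine and had the largest change of the class (chromosome 7, 143557230 to 143600090, GRCm38). In the 5 controls its normalised read counts (CPM, reads scaled to a common library total) were 34.9, 41.9, 37.0, 38.2 and 51.2, and in antibiotics libraries 1, 2, 3 and 5 they were 26.1, 26.4, 26.4 and 22.8. Every antibiotics library was below every control. The mean moved from 40.6 ± 6.42 (SD, n = 5) to 25.4 ± 1.76 CPM (SD, n = 4), a log2 fold change of -0.68 ± 0.11 (SE, edgeR adjusted p = 0.0156), or 37.5% lower. Exons of Cars overlap those of Gm15580 on the opposite strand by 211 nt, and the use of strand in counting is not known.

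Yars loads tyrosine (chromosome 4, 129189760 to 129219607). Its levels were 33.7, 39.8, 33.1, 33.5 and 40.01 CPM in controls and 26.9, 28.6, 27.4 and 23.9 CPM with antibiotics, again with no overlap. Yars had a log2 fold change of -0.44 ± 0.09 (SE, edgeR adjusted p = 0.0330). A transcript of Yars holds a repeat found in transcripts of 67 other genes, so a part of its reads could be shared with them.

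Mars loads methionine, including that of the initiator transfer RNA, and belongs to the multi-synthetase complex (chromosome 10, 127296221 to 127311786). Its levels were 64.8, 72.2, 64.5, 64.7 and 72.5 CPM in controls against 56.0, 56.0, 53.3 and 47.4 CPM, and the groups did not overlap. The log2 fold change was -0.35 ± 0.07 (SE, edgeR adjusted p = 0.0381). Exons of Mars overlap those of Ddit3 on the opposite strand by 68 nt, and no source used here says whether strand was used in counting.

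Nars loads asparagine and had the second highest level per length of the 36 genes. It measured 138, 149, 140.4, 140.5 and 162 CPM in controls against 113, 128, 116 and 109.97 CPM with antibiotics. Even the highest antibiotics library was below the lowest control. This gave a log2 fold change of -0.32 ± 0.07 (SE, edgeR adjusted p = 0.0439).

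Iars loads isoleucine and is also a complex member (chromosome 13, 49682100 to 49734267). Its levels of 53.5, 55.6, 52.9, 56.4 and 60.4 CPM in controls stood above those of 45.7, 47.7, 45.0 and 41.9 CPM with antibiotics, without overlap. Its log2 fold change was -0.31 ± 0.07 (SE, edgeR adjusted p = 0.0393). A stretch of 1656 nt of Iars is 96.0% identical to Gm4849, whose own level was at most 0.0558 CPM in any library.

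Tars, for threonine, and Sars, for serine, had log2 fold changes of larger size than Mars but did not pass. Tars measured 156, 152, 104, 142 and 124 CPM in controls and 92.9, 110.3, 84.4 and 71.5 CPM with antibiotics. Its groups overlapped, because control 3 lay below antibiotics 2, and its log2 fold change was -0.60 ± 0.14 (SE, edgeR adjusted p = 0.0515). Sars measured 63.6, 67.9, 56.9, 62.7 and 84.3 CPM against 49.3, 48.4, 51.2 and 52.7 CPM. The groups of Sars did not overlap, control 5 stood highest, and the log2 fold change was -0.41 ± 0.10 (SE, edgeR adjusted p = 0.0601).

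**Figure D2:**
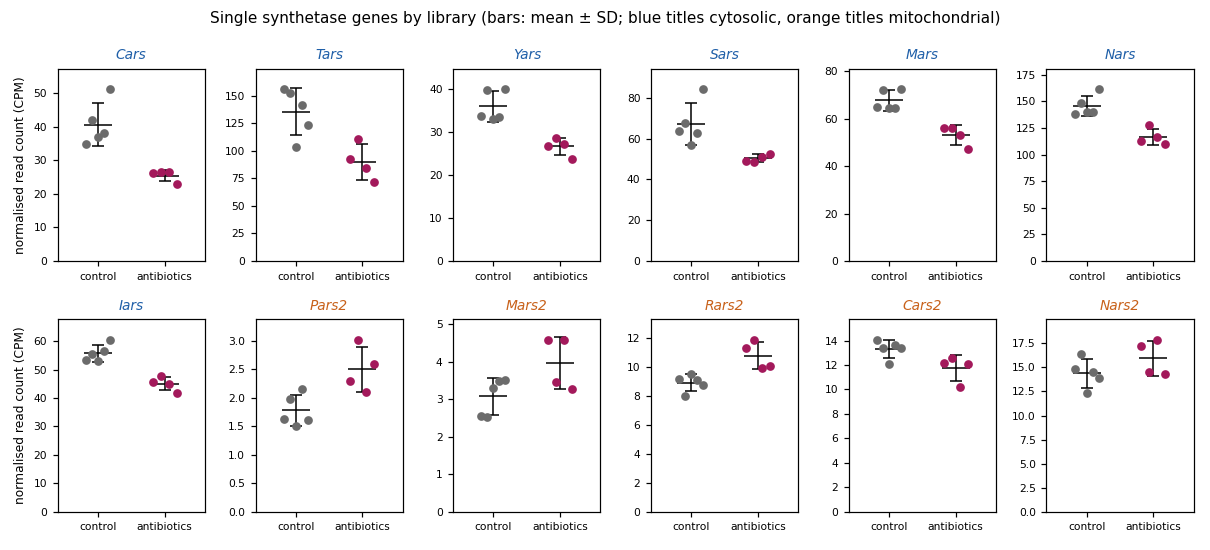
Normalised read counts (CPM, y axes from 0) of 7 cytosolic and 5 mitochondrial genes in 5 control and 4 antibiotics libraries, 1 point per library, with bars for the mean ± SD. In Cars, Yars, Sars, Mars, Nars and Iars every antibiotics point lies below every control point, and in Rars2 every antibiotics point lies above.

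The 13 other cytosolic genes had log2 fold changes between -0.30 (Aars, for alanine) and 0.08 (Dars, for aspartate), and none of them passed. Aars, Farsb and Rars were also lower in every antibiotics library than in any control, which makes 9 such genes of 20 in the class, against 4.29% of all tested genes. At an unadjusted p under 0.05, 13 of 20 were lower, against 8.87% of all tested genes. Dars was the exception in direction, at 65.0 to 73.3 CPM in controls and 66.2 to 81.0 CPM with antibiotics. Eprs, the fused enzyme for glutamate and proline, was near 0 with a log2 fold change of -0.03 ± 0.07 (SE). Transcripts of Eprs are similar over a stretch to transcripts of 134 other genes, so a part of its reads could be shared too. Qars and Vars, for glutamine and valine, both had -0.11. The 2 subunits of the phenylalanine enzyme were alike in direction, with -0.17 ± 0.09 for Farsa and -0.21 ± 0.08 for Farsb (SE).

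The members of the multi-synthetase complex (Dars, Eprs, Iars, Kars, Lars, Mars, Qars, Rars) had a median log2 fold change of -0.18, with 2 of 8 called. The other 12 cytosolic genes had a median of -0.29, with 3 called. The 4 genes with the strict ATF4 letters had values from -0.60 to -0.30 with a median of -0.37, while the other 8 cytosolic genes with a window had a median of -0.18, and none of those was among the 5 called. The other 3 called genes, Cars, Mars and Nars, had no window on hand, so the letters were not looked for in them. These groupings were made after the values were seen and were not tested. The 3 scaffold genes of the complex gave 0 calls by edgeR, DESeq2 and limma-voom, with 1 lower at an unadjusted p under 0.05: Aimp1 had a log2 fold change of -0.21 ± 0.08, Aimp2 of -0.02 ± 0.15 and Eef1e1 of -0.17 ± 0.11 (SE).

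The genes of the cytosolic class moved together across libraries. A class score, the mean over its genes of log2 CPM relative to the control mean, was -0.04, 0.06, -0.11, -0.05 and 0.15 in controls 1 to 5. In antibiotics libraries 1, 2, 3 and 5 it was -0.23, -0.21, -0.29 and -0.31, below every control. In those 4 libraries 18, 19, 19 and 20 of the 20 genes were under their control mean. The controls themselves also moved together: 18 of 20 genes were under the mean in control 3 and only 4 of 20 in control 5. That movement among controls was not particular to the class. The same score of 78 mitochondrial ribosomal proteins was -0.12 in control 3 and 0.16 in control 5, and that of the mitochondrial synthetases -0.08 and 0.06. In antibiotics libraries 1, 2, 3 and 5 the ribosomal protein score was 0.08, -0.03, -0.04 and 0.02. The summed level of the class was 1326 ± 89.8 CPM in controls (SD, n = 5) and 1101 ± 37.6 CPM with antibiotics (SD, n = 4).

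The mitochondrial class score was 0.00, 0.02, -0.08, -0.00 and 0.06 in controls and 0.07, 0.05, -0.01 and 0.14 with antibiotics, so the groups overlapped. The cytosolic score minus the mitochondrial score was -0.30, -0.25, -0.28 and -0.46 in the antibiotics libraries and between -0.05 and 0.09 in the controls. The value of antibiotics library 5 holds its high Lars2: with Lars2 left out, an alternative added after seeing the data, the 4 gaps were -0.33, -0.28, -0.30 and -0.31, and the controls lay between -0.07 and 0.09.

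**Figure D3:**
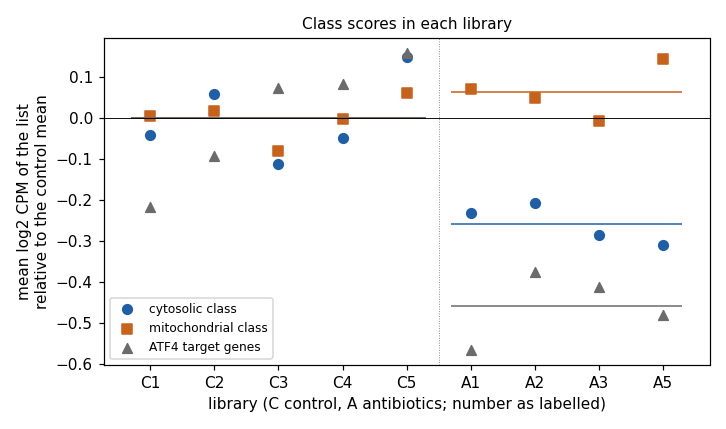
The mean log2 CPM of each list relative to its control mean (y axis) in control libraries C1 to C5 and antibiotics libraries A1, A2, A3 and A5, with lines for group means. The cytosolic score (circles) is at -0.21 or lower in the 4 antibiotics libraries, the mitochondrial score (squares) stays between -0.08 and 0.14, and the score of the ATF4 target genes (triangles) is lowest in the antibiotics libraries.

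No mitochondrial synthetase of 16 was called, by edgeR, DESeq2 or limma-voom. Over all tested genes edgeR called 1.63% higher and 1.05% lower. The shares were 3.46% and 3.11% for DESeq2, and 1.82% and 0.955% for limma-voom, so 0 of 16 is near them. At an unadjusted p under 0.05 edgeR gave 2 higher (Pars2 and Rars2, against 9.6% of all tested genes) and 1 lower (Iars2). Rars2 was the 1 gene of the class whose antibiotics libraries all lay above every control, a pattern seen in 4.59% of all tested genes, and in 0 of 16 did they all lie below. The 16 genes span many amino acids. The mitochondrial enzyme for glutamate (Ears2) also loads the glutamine transfer RNA there, and the amidotransferase subunits Qrsl1, Gatb and Gatc then convert its product.

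Rars2, for arginine, measured 9.21, 8.004, 9.51, 9.12 and 8.74 CPM in controls and 11.3, 11.9, 9.95 and 10.1 CPM with antibiotics. All 4 antibiotics values were higher, by a narrow gap to control 3. The log2 fold change was 0.27 ± 0.09 (SE, edgeR adjusted p = 0.136). Pars2, for proline, measured 1.63, 1.97, 1.502, 2.15 and 1.62 CPM against 2.29, 3.01, 2.10 and 2.59 CPM. Its groups overlapped in that control 4 was above antibiotics 3, and its log2 fold change was 0.49 ± 0.17 (SE, edgeR adjusted p = 0.158). The gene was read by only 35 to 161 counts per library.

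Mars2, for methionine, had the lowest level per length of the family, at 62 to 204 counts per library. It measured 2.57, 2.54, 3.31, 3.49 and 3.52 CPM in controls and 4.57, 3.46, 4.59 and 3.28 CPM with antibiotics, with overlap. The log2 fold change was 0.36 ± 0.17 (SE, edgeR adjusted p = 0.286).

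Nars2, for asparagine, measured 14.8, 16.4, 12.3, 14.5 and 13.9 CPM against 17.2, 14.5, 17.8 and 14.3 CPM. Antibiotics libraries 1 and 3 were high and the other two were among the controls, with a log2 fold change of 0.14 ± 0.10 (SE). Cars2, for cysteine, measured 14.0, 13.4, 12.1, 13.6 and 13.4 CPM against 12.2, 12.5, 10.2 and 12.1 CPM. It had the lowest log2 fold change of the class, -0.18 ± 0.08 (SE, edgeR adjusted p = 0.289), with antibiotics 3 low and control 3 among the antibiotics values. Cars fell by 37.5%, and its mitochondrial counterpart, which was not called, measured 11.6% lower.

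The 10 mitochondrial genes not given by library had log2 fold changes between -0.13 (Iars2, for isoleucine) and 0.06 (Aars2, for alanine). Fars2, Yars2, Vars2, Ears2, Tars2 and Sars2 were below 0, and Hars2 and Wars2 were above. Iars2 shares 2034 nt of exon with Rab3gap2 on the opposite strand, and Hars and Hars2 share 195 nt on opposite strands. Overlaps of this kind were also found for Fars2 (501 nt with Nrn1), Vars2 (465 nt with Gm20483) and Cars2 (422 nt with Naxd). Nars2 (284 nt with C230038L03Rik) and Farsb (248 nt with Sgpp2) had them too, and Aars, Ears2 and Yars had shorter ones. Without a statement on strand, reads in such stretches cannot be assigned with certainty. The auxiliary genes gave 0 calls of 4 by edgeR, DESeq2 and limma-voom, with 1 (Mtfmt) lower at an unadjusted p under 0.05: Qrsl1 had a log2 fold change of -0.03 ± 0.19, Gatb of 0.13 ± 0.07, Gatc of -0.03 ± 0.07 and Mtfmt, which formylates the initiator, of -0.23 ± 0.10 (SE).

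Lars2, for leucine, stood apart (chromosome 9, 123366927 to 123462666). It measured 1049, 916, 565, 594 and 776 CPM in controls and 616, 589, 603 and 4013 CPM in antibiotics libraries 1, 2, 3 and 5. The 3 antibiotics libraries other than 5 lay within the control range, and library 5 lay far above it. The fitted log2 fold change was 0.90 ± 0.54 (SE, edgeR adjusted p = 0.411), and it was -0.37 without antibiotics library 5. Without Lars2 the class median was -0.00 and the difference between classes -0.24.

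Transcripts related to ribosomal RNA were high in the same library. Of 8530 genes with at least 5 CPM in every library, 4 were over 2 times higher in antibiotics library 5 than in any other: Mir6236 (4.23 times the next library), Lars2 (3.83), Gm42418 (3.56) and Gm26917 (2.02). Gm42418 is named Rn18s-rs5 in RefSeq, a pseudogene related to 18S ribosomal RNA, and measured 2328, 2112, 1530, 1339 and 1493 CPM in controls and 1245, 1224, 1307 and 8287 CPM with antibiotics. The mitochondrial ribosomal RNA mt-Rnr2 was not high there, at 579 to 740.3 CPM in controls and 447 to 528 CPM with antibiotics. The longest alignment between Lars2 transcripts and those of Gm42418, Gm26917, Mir6236, mt-Rnr1 and mt-Rnr2 was 27 nt. That search held the transcripts of these genes only, so it cannot speak for other ribosomal RNA. The companions of Lars2 named here were picked after their values were seen, and their part in the Lars2 value was not tested. Without Lars2 the summed level of the mitochondrial class was 250.4 to 266 CPM in controls and 244 to 256 CPM with antibiotics.

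**Figure D4:**
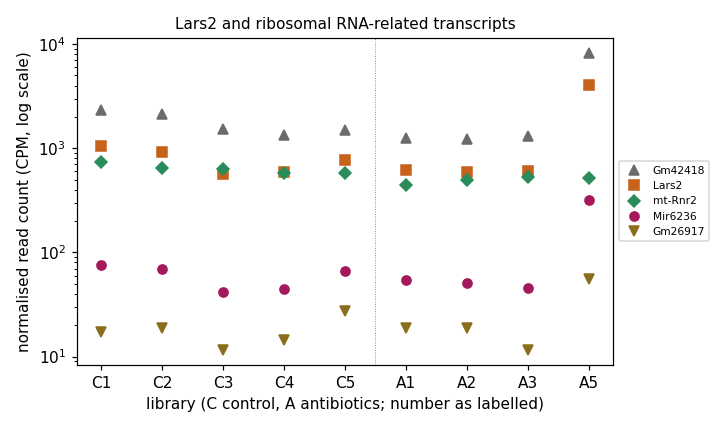
Normalised read counts (CPM, log y axis) of Lars2 and 4 ribosomal RNA-related transcripts in control libraries C1 to C5 and antibiotics libraries A1, A2, A3 and A5. Lars2 (4013 CPM), Gm42418 (8287 CPM), Mir6236 and Gm26917 are highest in A5, and mt-Rnr2 is not.

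Set side by side by amino acid, the cytosolic gene had the lower log2 fold change in 13 of 13 pairs that share a name, with a median difference of -0.41. The smallest difference was -0.03 (Vars and Vars2) and the largest -1.13 (Lars and Lars2, the pair with the high value in antibiotics library 5). The order of that pair rests on library 5. Without it Lars2 was at -0.37, and Lars was no lower than -0.28 in any fit with a library left out. Mars and Mars2 differed by -0.71, Tars and Tars2 by -0.52 and Cars and Cars2 by -0.50. With Farsa set against Fars2 and Eprs against both Ears2 and Pars2, 15 of 16 pairings had that order, the exception being Eprs and Ears2 at 0.04. The pairs share their libraries and the classes were known to differ, so these counts describe and do not test.

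The paired genes also differed in level. In controls the cytosolic gene had the higher level per kilobase of exon in 12 of 13 pairs, with a median ratio of 3.36. The ratio was 72.4 for Mars against Mars2, 16.2 for Nars against Nars2 and 8.51 for Aars against Aars2. Such ratios depend on the annotated exon length, which is 3423 nt for Mars and 11294 nt for Mars2. Lars2, at 70.3 ± 18.7 CPM per kb (SD, n = 5), was the exception against Lars at 5.95 ± 0.38. Among the controls, Lars2 (1049 and 916 CPM) and Gm42418 (2328 and 2112 CPM) were both highest in libraries 1 and 2. Their order differed in the other controls. Whether all reads counted for Lars2 came from its mRNA was not tested, so its control level and rank carry that doubt. The median level was 11.3 CPM per kb in the cytosolic class and 2.98 in the mitochondrial class, or 17.8 and 4.37 when the longest transcript gave the length.

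**Figure D5:**
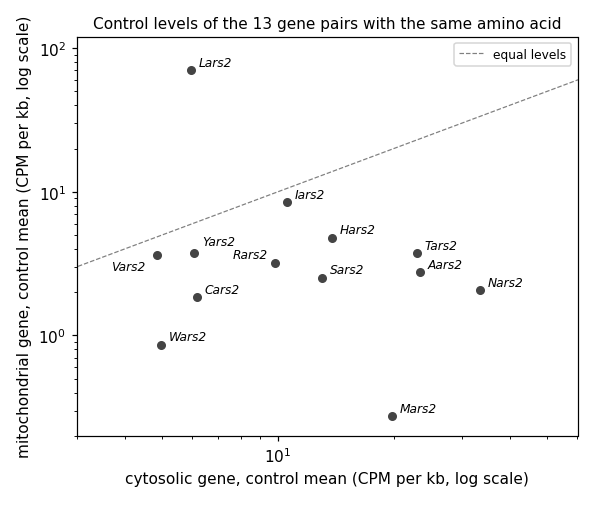
Control mean level (CPM per kb of exon, log axes) of the cytosolic gene (x axis) and the mitochondrial gene (y axis) for 13 pairs loading the same amino acid, with a dashed line for equal levels. All points but Lars2 lie below the line, with Mars2 lowest.

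In the order of control levels per length, Lars2 was followed by Nars (33.5), Aars (23.4), Tars (23.0), Mars (19.8), Gars (18.02), Dars (15.8), Hars (13.8), Sars (13.05), Kars (12.96), Farsb (12.01) and Iars (10.6 CPM per kb). Rars (9.86), Qars (8.70), Iars2 (8.47), Eprs (7.28), Cars (6.17), Yars (6.06), Lars (5.95) and Wars (4.98) came next. From there on mitochondrial genes prevailed: Fars2 (4.86), Vars (4.85), Hars2 (4.80), Yars2 (3.75), Tars2 (3.73), Vars2 (3.65), Farsa (3.45), Rars2 (3.22), Aars2 (2.75), Sars2 (2.53), Nars2 (2.07), Cars2 (1.84) and Ears2 (1.83 CPM per kb). Wars2 (0.858), Pars2 (0.574) and Mars2 (0.273 CPM per kb) were lowest. The order also depends on the annotated exon lengths, which the SD among control libraries does not cover. Of the 35 neighbours in this order, 17 differed by less than 1 SD, among them Aars and Tars, Hars, Sars, Kars and Farsb in turn, Cars, Yars and Lars, and Wars, Fars2, Vars and Hars2. Aars shares 1326 nt of exon with Exosc6 on the same strand, and the separate Exosc6 entry was at most 0.0367 CPM.

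Of 14 genes for eIF2 kinases, ATF4 and its partners, 0 passed in edgeR, while 5 were lower and 0 higher at an unadjusted p under 0.05, where 8.87% of all tested genes were lower. DESeq2 called 3 lower, against 3.11% of all tested genes, and limma-voom 1 lower, against 0.955%. Atf4 transcript measured 70.7, 68.2, 56.8, 63.5 and 76.4 CPM in controls and 60.1, 50.9, 52.7 and 52.5 CPM with antibiotics, overlapping only through antibiotics 1 and control 3. Its log2 fold change was -0.31 ± 0.09 (SE, edgeR adjusted p = 0.0900). ATF4 is controlled mainly through translation, which RNA levels do not show. Eif2ak4 had a log2 fold change of -0.08 ± 0.11, and Ddit3, a stress transcription factor, of -0.46 ± 0.16 (SE). The changes of largest size in the list, named after they were seen, were those of Eif2ak3, the kinase PERK, at -0.76 ± 0.19 (SE, edgeR adjusted p = 0.0584) and Atf5, a relative of ATF4, at -0.51 ± 0.14 (SE, edgeR adjusted p = 0.0746). In both, every antibiotics library was below every control.

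Of 23 genes known as ATF4 targets, not all of them genes of amino acid metabolism, 5 fell and 0 rose in edgeR. The median log2 fold change was -0.65, and 18 of 23 were below 0. In edgeR 1.05% of all tested genes were lower. DESeq2 called 9 lower and 1 higher, against 3.11% and 3.46% of all tested genes, and limma-voom 4 lower and 1 higher, against 0.955% and 1.82%. Mthfd2, a mitochondrial folate enzyme, changed from 4.69 ± 1.22 to 1.92 ± 0.43 CPM (SD, n = 5 and 4), a log2 fold change of -1.29 ± 0.23 (SE, edgeR adjusted p = 0.0221). Aldh18a1, an enzyme of proline synthesis, had -1.22 ± 0.25 (SE, edgeR adjusted p = 0.0330) and Slc1a4, a transporter of small neutral amino acids, -0.95 ± 0.21 (SE, edgeR adjusted p = 0.0397). The other 2 that fell were Psph, the last enzyme of serine synthesis, at -0.66 ± 0.13 and Sesn2, a leucine sensor, at -0.65 ± 0.12 (SE). The 5 that fell had control means of 3.65 (Aldh18a1) to 11.4 CPM (Sesn2). More abundant members went both ways. Slc38a2 (127 CPM in controls), Slc3a2 (31.4 CPM) and Trib3 (15.2 CPM) were lower, and edgeR did not call them. Their log2 fold changes were -0.41 ± 0.14, -0.44 ± 0.13 and -0.14 ± 0.20 (SE). Gpt2 and Shmt2 were higher. Gpt2 moved from 432 ± 51.1 to 578 ± 49.5 CPM (SD, n = 5 and 4), with every antibiotics library above every control. Its log2 fold change was 0.42 ± 0.10 (SE, edgeR adjusted p = 0.0555), and that of Shmt2, at 173 CPM in controls, was 0.20 ± 0.09 (SE). Asns, the asparagine synthetase often read as the marker of this response, was 3.46, 4.68, 14.4, 4.94 and 14.6 CPM in controls and 6.67, 5.24, 7.40 and 5.23 CPM with antibiotics. Controls 3 and 5 were high and the other controls low, and its log2 fold change was -0.45 ± 0.42 (SE).

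The score of the 23 targets was -0.57, -0.38, -0.41 and -0.48 in the antibiotics libraries and -0.22, -0.09, 0.07, 0.08 and 0.16 in the controls. It was lower in every antibiotics library than in any control, as was the cytosolic synthetase score. Whether the 2 lists are linked was not tested.

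Among the other translation lists examined, edgeR called none of 8 cytosolic elongation and release factors (median log2 fold change -0.10), 7 synthetase-like genes (0.10), 9 mitochondrial translation factors (-0.02), 14 genes of mitochondrial tRNA processing (0.07) and 78 mitochondrial ribosomal proteins (0.01). At an unadjusted p under 0.05 these lists had, in the same order, 1 lower, 2 higher, 1 higher, 2 higher, and 1 higher with 2 lower. Of all tested genes 9.6% were higher and 8.87% lower at that threshold. The other tools called 1 synthetase-like gene (DESeq2, higher, against 3.46% of all tested genes) and otherwise 0. The 13 mRNAs encoded by the mitochondrial genome gave 0 calls by all 3 tools, with a median of 0.32. At an unadjusted p under 0.05, 4 of these 13 were higher, against the same 9.6%. Their score was 0.35, 0.58, 0.41 and -0.06 in antibiotics libraries 1, 2, 3 and 5, and -0.16 to 0.27 in controls, so library 5 differed from the other three here too.

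Total counts were 28156248 to 49628737 in the controls, 15422891 to 18504624 in antibiotics libraries 1 to 3 and 59179622 in antibiotics library 5. The cytosolic score was -0.31 in that deepest library and -0.29 to -0.21 in the 3 shallow ones. Hepatocyte markers, mostly Alb, summed to 75540 to 90231 CPM in all 9 libraries and those of pancreatic acinar cells to at most 0.553 CPM. Of the 5 hepatocyte markers edgeR and limma-voom called 0 and DESeq2 1 higher, and 2 were higher at an unadjusted p under 0.05: Cyp2e1 had a log2 fold change of 0.53 ± 0.14 (SE, edgeR adjusted p = 0.0661), with every antibiotics library above every control, and Cps1 of 0.40 ± 0.16 (SE, edgeR adjusted p = 0.208). The 3 erythroid markers were above 0 (0 called by any of the 3 tools, Alas2 higher at an unadjusted p under 0.05), and summed to 142 to 217 CPM in controls and 199 to 273 CPM with antibiotics. Kupffer cell markers (0 of 5 called by any of the 3 tools, 0 at an unadjusted p under 0.05) summed to 355 CPM in control 2 and to 129 to 181 CPM in the other 8 libraries. The score of 11 interferon-induced genes (0 called by any of the 3 tools, 1 higher at an unadjusted p under 0.05) was 1.02 in control 2 and at most 0.05 elsewhere. Wars, for tryptophan, is known to be induced by interferon and was highest in control 2, at 20.1 CPM against 14.6 to 19.3 CPM in the other controls; its log2 fold change was -0.26, and -0.19 without that library. The part of these differences in the results was not tested.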

How the data were processed

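Liver RNA of 9 libraries was made into stranded poly(A) libraries, per the labels' protocols. The authors deposited estimated counts per gene. The submitters' processing notes, per the labels, name Salmon and the build GRCm38. Its version and settings, the annotation release and any use of strand were not given in the sources used here. Every deposited value was a whole number, used as it stood. Groups and replicate numbers came from the titles and the antibiotics label, and 0 columns of sample values were left unused. Since no label ties each library to its own mouse, p-values cover the spread among the libraries, which may be technical. Libraries of a group differed by a chi-square per degree of freedom of at least 18.4, and none was merged.

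Totals ran from 15422891 to 59179622 counts. The edgeR 4.0.16 filter filterByExpr (minimum count 10, minimum total 15) kept 14873 genes. After TMM scaling, group alone was fitted with the quasi-likelihood F test (R 4.3.3), and p-values were adjusted by Benjamini-Hochberg over all tested genes, with calls at an adjusted p under 0.05. The SE is the log2 fold change divided by the square root of F. CPM are on TMM-scaled libraries. Scores use log2 CPM with a prior count of 2. Tested on simulated data of this comparison (14873 genes, 5 and 4 libraries), it called 38% of genes changed 1.5-fold and 70% of those changed 2-fold.

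The members, the other lists and the tests were chosen with earlier results of these data known. Values in every library are given for the 6 members of each class with the largest size of log2 fold change and for every called member. Of other lists, counts of calls and up to 3 called members with the largest change are given, with Atf4, Eif2ak4, Ddit3, Asns and the scaffold, amidotransferase and formylation genes. Psph, Sesn2, Gpt2, Shmt2, Slc38a2, Slc3a2, Trib3, Eif2ak3, Atf5, the marker genes named and the companions of Lars2 were named after their values were seen. Gene positions and exon lengths came from GENCODE M21, and promoter sequences from RefSeq (GRCm38.p6), of which 1 match is not reported here. BLAST 2.17.0 compared transcripts, with hits of 200 nt or more at 90% identity or more. The alternatives tried were DESeq2 1.42.0 and voom of limma 3.58.1 as tests, upper-quartile and RLE scaling, other filters, library sizes and thresholds, leaving out each library, and a replicate block. Thinning to the smallest total and medians and scores without Lars2 were added after seeing the data.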

Additional observations from a re-analysis of the deposited data

Results flagged for a closer look

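Among 78 sets of libraries of 1 gene and 1 group that were examined for a library far from its group, 3 stood out, where chance flags about 1 in 20. In antibiotics library 5, Lars2 had 4013 CPM and the next library of the group 616 CPM. In the same library Cars had 22.8 CPM, below the next at 26.1 CPM, so the gene with the largest fall was lowest in the deepest library. In control library 5, Farsa had 18.2 CPM and the next control 15.4 CPM.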

How the results depend on the processing

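Under every alternative run the cytosolic median stayed below 0, between -0.28 and -0.21, and the difference between the classes lay between -0.30 and -0.23. The mitochondrial median lay on both sides of 0, between -0.01 and 0.05, and 0 mitochondrial genes were called in each. Counts of calls moved more. Over all genes 398 were called, 976 by DESeq2, 937 at an adjusted p under 0.1 and 205 after thinning, and between 36 and 455 with a library left out. For the cytosolic class the 5 calls became 8 with DESeq2, 2 after thinning and 0 to 7 with a library left out. With the replicate block, which uses the 8 libraries whose number occurs in both groups, 179 genes and 1 cytosolic gene (Tars) were called, against 144 and 1 in the same 8 libraries without it. The numbers were not shown to pair the libraries. Deviations from the group means correlated by -0.00, -0.06, 0.03 and 0.10 for numbers 1, 2, 3 and 5. In each group 2 of 4 libraries correlated best with their own number. Such correlations cannot settle whether the libraries were paired. Tars and Sars, not called with all libraries, passed in 2 each of the 9 fits with a library left out. Thinning left every library 15422891 counts; at that depth Pars2 and Mars2 rest on the fewest reads.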
